A study of Mus musculus with 6 samples.

Results

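The immunoglobulin kappa variable (Igkv) segments were taken as every row of the deposited table whose symbol starts with Igkv, which gave 103 of its 41669 genes. RNA sequencing had been done on B cells from the spleens of 6 mice of the NZB/W F1 hybrid, the cross of NZB with NZW, in which lupus-like disease arises. All 6 mice had late disease. Their B cells came off a positive-selection column and spent 24 h in culture with CpG, a ligand of the DNA sensor TLR9, so both groups carry this stimulation. The groups were 3 females and 3 males, and the series compares the sexes. No age and no untreated or healthy group is part of the values below.

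A kappa light chain gene is assembled in a developing B cell by joining 1 Igkv segment to 1 of the Igkj segments, and RNA splicing then links the joined exon to the constant gene Igkc. The Igkv segment supplies most of the variable domain of the light chain, including most of its antigen-contact loops. Because each B cell normally keeps a single productive light chain, the shares of Igkv segments in a B cell population describe the kappa part of its light chain repertoire. In bulk RNA a share also depends on how much light chain RNA each cell holds, and more cells with a segment cannot be told apart from more RNA per cell.

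The 12 segments with the largest mean share end their V exon as follows. The lower-case bases are the codons of 2 aromatic residues and of the conserved cysteine, and the capitals are the germline bases after that cysteine, which open the last antigen-contact loop and are followed by the join to a J segment. Sequences here are from GENCODE M21 transcripts on GRCm38, 5′ to 3′ on the coding strand, and they are reference sequences, not those of the NZB or NZW alleles.
Igkv10-96: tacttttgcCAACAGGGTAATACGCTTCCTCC
Igkv16-104: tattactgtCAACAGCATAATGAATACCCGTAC
Igkv12-44: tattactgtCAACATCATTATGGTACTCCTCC
Igkv1-117: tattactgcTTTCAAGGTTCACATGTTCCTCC
Igkv5-48: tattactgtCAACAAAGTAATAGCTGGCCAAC
Igkv1-110: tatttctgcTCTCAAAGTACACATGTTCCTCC
Igkv14-111: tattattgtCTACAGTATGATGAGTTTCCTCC
Igkv13-84: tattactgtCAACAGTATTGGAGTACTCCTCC
Igkv17-127: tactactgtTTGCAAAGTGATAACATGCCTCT
Igkv10-94: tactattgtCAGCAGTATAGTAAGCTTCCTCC
Igkv19-93: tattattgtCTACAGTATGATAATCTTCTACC
Igkv1-135: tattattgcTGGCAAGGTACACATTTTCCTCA

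All 103 segments matched a GENCODE M21 gene, 96 of them annotated as V genes and 7 as V pseudogenes. They lie on chromosome 6 from 67555497 to 70704177, upstream of Igkj1 (70722562 to 70722599) and Igkc (70726435 to 70726966). The deposited estimated counts of the 6 libraries summed to between 24089561 and 35659883. The Igkv sum was 5939, 6632 and 3220 counts in female replicates 1 to 3 and 6607, 5568 and 6455 in male replicates 1 to 3. As a share of all counts this was 0.0247% (95% Wilson interval 0.024 to 0.0253%), 0.0226% (0.022 to 0.0231%) and 0.00903% (0.00872 to 0.00935%) in the females. In the males it was 0.0209% (0.0204 to 0.0215%), 0.0203% (0.0198 to 0.0209%) and 0.0194% (0.019 to 0.0199%). Female replicate 3 therefore had the deepest library but the lowest Igkv sum, and it stood apart from the other 5 in most values below. With 3 counts as the limit that a count of 0 allows, the smallest share that could be told from 0 was 0.0452% of the Igkv sum in female replicate 2 and 0.0932% in female replicate 3. Intervals and limits cover counting error only.

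In every mouse the largest segment was Igkv10-96 (chromosome 6: 68631963 to 68632442, minus strand; ENSMUSG00000094420.2). It took 15.1%, 17.7% and 22.9% of the Igkv sum in female replicates 1 to 3 and 19.3%, 18.1% and 18.1% in male replicates 1 to 3. The males lay inside the range of the females, and the Wilson intervals of female replicate 1 (14.2 to 16.0%) and female replicate 3 (21.5 to 24.4%) did not overlap. Igkv16-104 (68425575 to 68426072, plus strand; ENSMUSG00000076522.2), the only segment of its family in the table, came second in every mouse. It took 5.21%, 6.01% and 11.2% in the females and 5.02%, 6.16% and 5.17% in the males, so that female replicate 3 was the single high value. The third segment was Igkv12-44 in 4 mice and Igkv1-117 in female replicate 1 and male replicate 2. Igkv12-44 (69814631 to 69815154) took 3.96%, 4.48% and 5.71% in the females and 4.80%, 4.86% and 4.55% in the males. Igkv1-117 (68121046 to 68121827) took 4.94%, 4.12% and 3.83% in the females and 4.57%, 5.36% and 4.09% in the males.

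No library was taken over by 1 or a few segments. The 5 largest segments together held 34.0%, 36.7% and 49.0% of the sum in the females and 38.0%, 38.2% and 35.6% in the males. To reach 50% of the sum took 10, 9 and 6 segments in female replicates 1 to 3 and 9, 9 and 10 in male replicates 1 to 3. To reach 90% took 37, 36 and 25 segments in the females and 32, 36 and 35 in the males. The effective number of segments, the inverse Simpson index, is the number of equally used segments that would give the same concentration. It was 22.3, 18.8 and 12 in the females and 16.9, 18.2 and 18.7 in the males. Female replicate 3 was thus the most concentrated library and female replicate 1 the least, with all males between them. Females averaged 17.7 ± 5.24 (SD, n = 3) and males 17.9 ± 0.938, a difference within the spread (two-sided exact permutation test, p = 1, where 3 against 3 cannot go below 0.1).

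**Figure D1:**
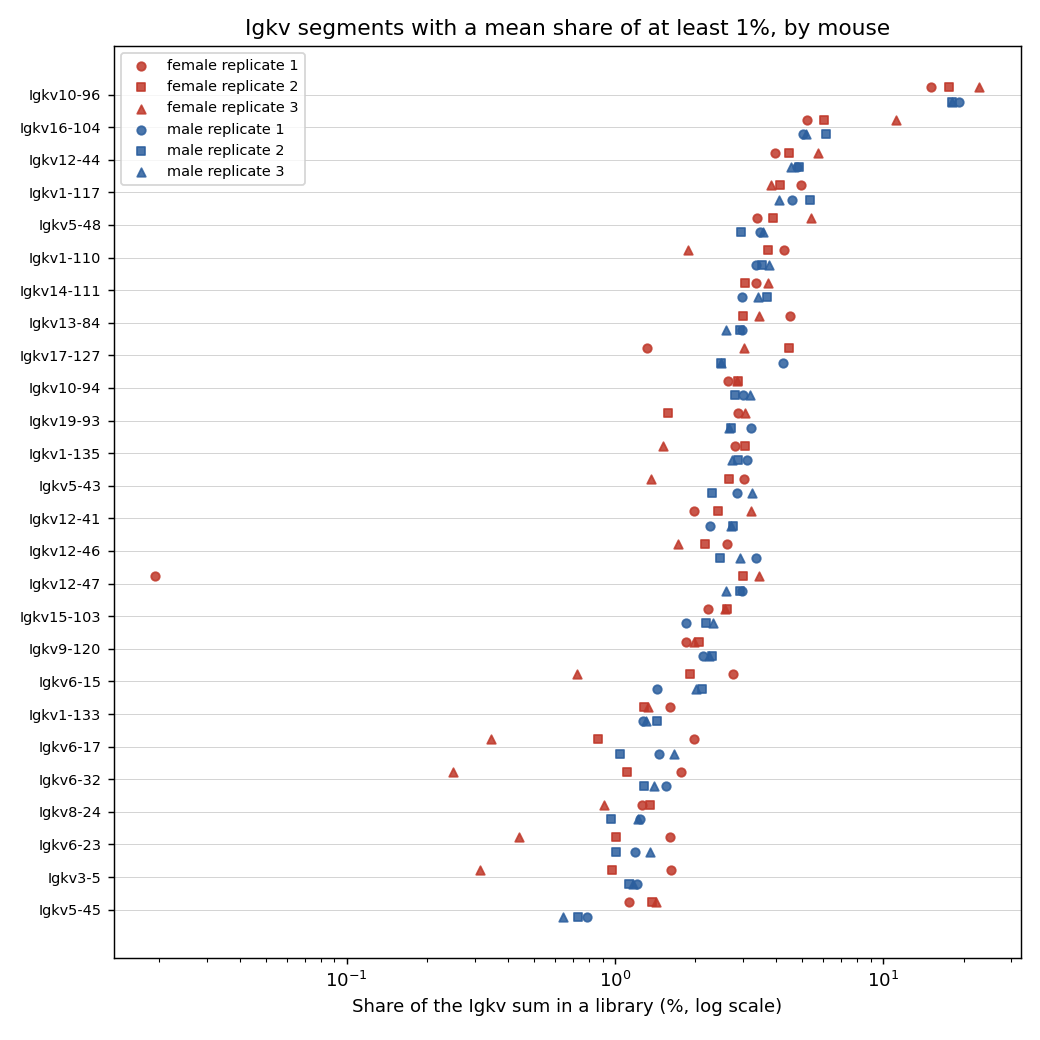
Share of the Igkv sum (x axis, percent, log scale) of the 26 segments with a mean share of at least 1% (y axis), with 1 point per mouse, females in red and males in blue. Igkv10-96 is highest in all 6 mice, female replicate 3 lies to the left for the family 6 segments and Igkv3-5, and Igkv12-47 in female replicate 1 stands alone at 0.0193%.

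Below these leaders usage was broad. A mean share of at least 1% was reached by 26 of 103 segments, and the 12 largest held 59.3% of the sum on average. At least 1 count was present in all 6 mice for 60 segments and in some but not all mice for 34, and 9 stayed under 1 count in each mouse. Of the 7 annotated pseudogenes only Igkv12-47, described below, had a mean share over 0.138%. The steadiest of the 12 largest was Igkv10-94 (68704508 to 68704978), which took 2.64%, 2.88% and 2.85% in the females and 3.02%, 2.80% and 3.20% in the males. Igkv14-111 (68256389 to 68256869) was nearly as steady, at 3.37%, 3.05% and 3.72% in the females and 2.99%, 3.71% and 3.43% in the males. Igkv5-48 (69726573 to 69727138) took 3.40%, 3.88% and 5.41% in the females and 3.49%, 2.95% and 3.57% in the males, and female replicate 3 was again high. Igkv1-110 (68270485 to 68271267) took 4.26%, 3.73% and 1.87% in the females and 3.37%, 3.54% and 3.75% in the males. Igkv1-135 (67609713 to 67610508) took 2.81%, 3.06% and 1.51% in the females and 3.12%, 2.87% and 2.74% in the males. For both segments female replicate 3 was the low value and the other 5 mice lay close together. Igkv19-93 (68736297 to 68736780) was low in another mouse: it took 2.87%, 1.58% and 3.06% in female replicates 1 to 3 and 3.22%, 2.71% and 2.67% in the males.

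The leading segment belongs to a family of close relatives, so its V exon is shown whole beside theirs. Capitals in Igkv10-94 and Igkv10-95 mark bases that differ from Igkv10-96. The exons lie at chr6:68631963-68632260, chr6:68704508-68704805 (both minus strand) and chr6:68680551-68680848 (plus strand) in GRCm38.
Igkv10-96: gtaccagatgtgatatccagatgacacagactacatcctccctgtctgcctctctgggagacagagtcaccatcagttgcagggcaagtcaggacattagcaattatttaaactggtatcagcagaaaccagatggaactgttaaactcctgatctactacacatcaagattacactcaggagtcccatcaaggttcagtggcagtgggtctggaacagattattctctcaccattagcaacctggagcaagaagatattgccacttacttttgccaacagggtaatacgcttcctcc
Igkv10-94: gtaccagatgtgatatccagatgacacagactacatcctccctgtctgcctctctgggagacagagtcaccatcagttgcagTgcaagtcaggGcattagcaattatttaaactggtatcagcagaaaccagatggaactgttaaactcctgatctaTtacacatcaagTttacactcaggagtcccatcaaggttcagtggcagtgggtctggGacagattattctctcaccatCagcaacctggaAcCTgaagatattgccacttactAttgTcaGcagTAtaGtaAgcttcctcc
Igkv10-95: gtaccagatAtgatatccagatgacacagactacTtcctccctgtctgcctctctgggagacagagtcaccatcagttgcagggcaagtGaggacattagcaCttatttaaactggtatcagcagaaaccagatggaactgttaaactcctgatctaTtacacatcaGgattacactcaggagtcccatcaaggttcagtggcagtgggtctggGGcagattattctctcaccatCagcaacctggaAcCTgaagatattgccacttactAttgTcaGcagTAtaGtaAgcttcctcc

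Igkv10-94 differed from Igkv10-96 at 16 of 298 bases (94.6% identity) and Igkv10-95 at 19 (93.6%). The capitals crowd at the 3′ end, where Igkv10-94 and Igkv10-95 share the same bases after the cysteine codon. Usage did not follow this likeness: Igkv10-95 took 0.404% in female replicate 2 and 0.264% in male replicate 3, and in the other 4 mice it was at 0 or near the limit of 3 counts, against the 15.1 to 22.9% of Igkv10-96. Of the 31-base windows of the Igkv10-96 transcript, 52.0% occurred in no other GENCODE M21 gene. Fewer than 50% of windows were private in 47 of the 103 segments, among them 7 of the 12 largest, so the split of reads between such relatives rests on the authors' estimation and is uncertain. Igkv5-48 and Igkv19-93 had 100% private windows and Igkv16-104 had 99.7%. This holds for GENCODE M21 only, since the transcripts that the authors quantified against are not named.

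By family, the first number after Igkv, families 10, 1 and 12 had the highest mean shares (21.6%, 14% and 13.1%). Family 10 was first in all 6 mice, while family 6 passed family 12 in female replicate 1 and family 16 passed family 1 in female replicate 3. Family 10 took 17.7%, 21% and 25.8% in the females and 22.4%, 20.9% and 21.5% in the males, and Igkv10-96 made up 86% of its mean share. Family 1, with 11 segments, took 15.8%, 14.2% and 10.8% in the females and 14.2%, 15% and 13.9% in the males. Family 12 took 9.41%, 12.9% and 14.5% in the females and 14.3%, 14% and 13.6% in the males. In these 3 families the females spanned a wider range than the males, and the sexes overlapped. Family 4, with the most segments (26), took 3.49%, 1.81% and 0.612% in the females and 2.07%, 2.46% and 1.97% in the males, while the single segment of family 16 held more in every mouse.

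Of the 19 families, 16 had a mean share of at least 1% and were compared between the sexes. The mean was higher in females in 7 and in males in 9. Only family 5 had no overlap: it took 7.66%, 8.30% and 8.55% in the females and 7.20%, 6.00% and 7.62% in the males. Its difference of 1.23 percentage points had an exact permutation p of 0.1, the smallest that 3 against 3 allows (two-sided; 0.96 after Benjamini-Hochberg adjustment over 16 families). Family 16 differed most, by 2.03 percentage points, which was 0.16 without female replicate 3. Families 2, 3, 4, 6 and 8 together took 24.5%, 15.4% and 6.47% in female replicates 1 to 3 and 16.4%, 16.7% and 17.7% in the males, so that female replicate 1 lay above all males and the other females below them. Family 6 alone took 9.43%, 6.01% and 2.07% in the females and 6.61%, 6.49% and 7.58% in the males. Without female replicate 3 the count of families with a higher female mean was 12 of 16 in place of 7.

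**Figure D2:**
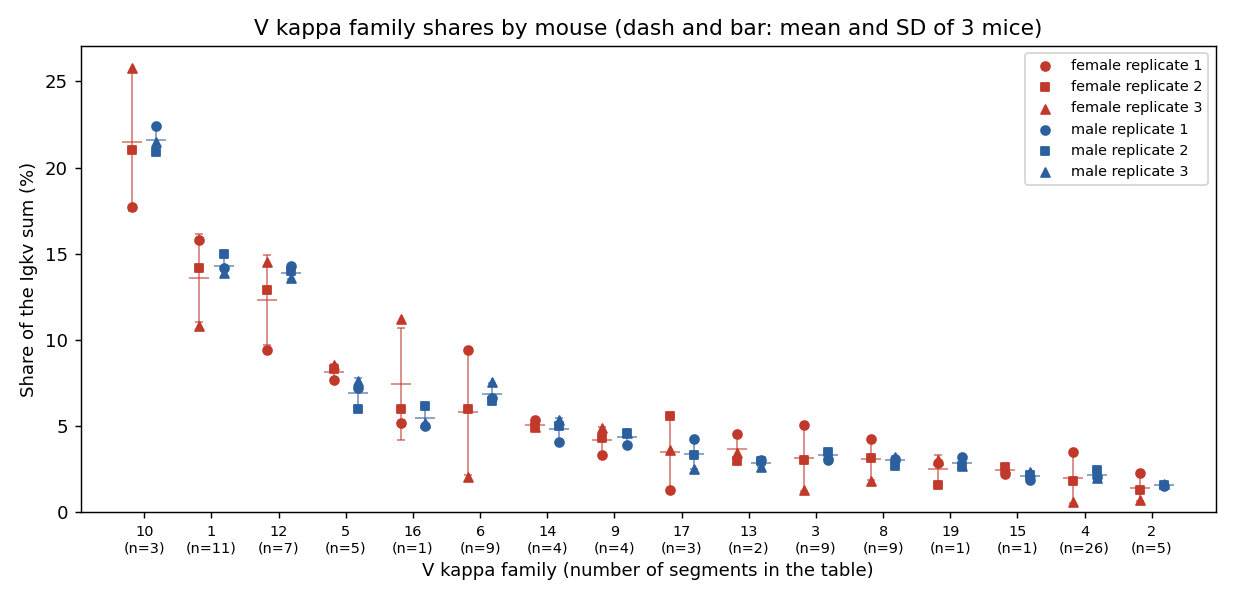
Share of the Igkv sum (y axis, percent) of the 16 families with a mean share of at least 1% (x axis, with the number of segments in the table), 1 point per mouse; the dash and bar give the mean and SD of 3 mice. The females spread more widely than the males in families 10, 1, 12, 16 and 6, and the males more widely than the females in families 5 and 14.

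The mice drew on their segments in similar proportions. Overlap was measured for each of the 15 pairs of mice as the sum over segments of the smaller of both shares, where 100% would mean identical usage. The pairs share mice and are given as a description. The 3 pairs of males overlapped by 90.9%, 92.0% and 92.2%. The 3 pairs of females overlapped by 84.1% (replicates 1 and 2), 71.5% (1 and 3) and 81.5% (2 and 3). Pairs of a female and a male ran from 79.1% to 91.4% with a median of 85.6%. Female replicate 2 overlapped each male by 90.9 to 91.4%, within the range of the males among themselves, and female replicate 1 did so by 85 to 87.3%. The 5 pairs with female replicate 3 ran from 71.5% to 81.5%, and the 10 pairs without it from 84.1% to 92.2%. Across the 103 segments, which are not independent replicates, Spearman correlations of the shares of 2 mice lay between 0.815 and 0.932. The 10 largest segments of each mouse came from a pool of 16 segments, and 5 of them (Igkv10-96, Igkv16-104, Igkv12-44, Igkv1-117 and Igkv5-48) were among the 10 largest in all 6 mice.

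**Figure D3:**
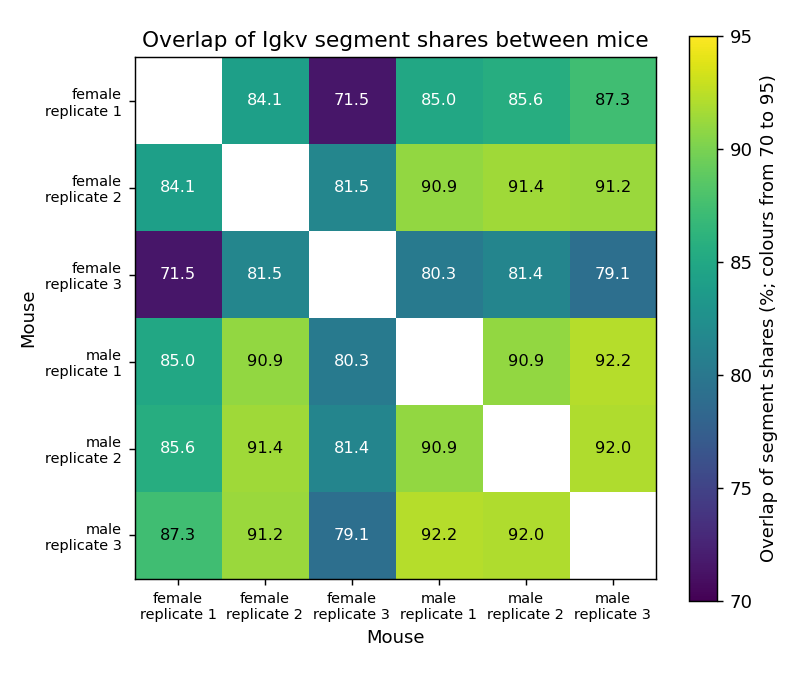
Overlap of Igkv segment shares (percent, number and colour) for each pair of the 6 mice. The pairs of males and the pairs of female replicate 2 with the males lie at or above 90.9%, and the pairs with female replicate 3 lie at or below 81.5%.

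A few segments differed widely between mice of the same sex. Igkv17-127 (67861153 to 67861659) took 1.32%, 4.45% and 3.03% in the females and 4.23%, 2.48% and 2.50% in the males. Its near copy Igkv17-121 (68036812 to 68037318) took 1.11% in female replicate 2, 0.601% in female replicate 3 and 0.845% in male replicate 2, and lay under the limit of 3 counts in the other 3 mice. The V exons of the pair are these, with capitals at the bases of Igkv17-121 that differ (chr6:67861362-67861659 and chr6:68037021-68037318, plus strand).
Igkv17-127: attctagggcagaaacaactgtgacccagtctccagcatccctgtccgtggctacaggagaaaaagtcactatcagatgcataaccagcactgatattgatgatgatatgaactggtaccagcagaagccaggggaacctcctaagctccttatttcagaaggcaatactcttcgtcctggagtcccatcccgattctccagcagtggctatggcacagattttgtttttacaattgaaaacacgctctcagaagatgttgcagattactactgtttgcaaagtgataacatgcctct
Igkv17-121: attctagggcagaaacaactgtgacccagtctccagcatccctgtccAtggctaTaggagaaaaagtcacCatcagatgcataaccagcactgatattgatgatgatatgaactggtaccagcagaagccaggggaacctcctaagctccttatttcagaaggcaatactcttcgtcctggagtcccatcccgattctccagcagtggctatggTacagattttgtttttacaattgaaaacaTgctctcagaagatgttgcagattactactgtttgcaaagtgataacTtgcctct

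They differ at 6 of 298 bases (98.0% identity), and 168 windows of 31 bases occur in both transcripts. The sum of both, which does not depend on how reads were divided between them, was 1.32%, 5.57% and 3.63% in the females and 4.23%, 3.33% and 2.51% in the males. Female replicate 1 was thus the lowest and female replicate 2 the highest for the sum too. Of the 329 windows of Igkv17-127, 27.1% are private, and some of the others occur in genes other than Igkv17-121. The sum can therefore still depend on a split of reads with those genes.

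Igkv12-47, annotated as a pseudogene (69750854 to 69751331), and Igkv13-84, a V gene (68939602 to 68940067), had the same deposited value in 5 of 6 libraries to within a relative difference of 1e-06. Both took 3.00% in female replicate 2, 3.44% in female replicate 3 and 2.99%, 2.92% and 2.59% in the males. In female replicate 1 Igkv13-84 took 4.52% and Igkv12-47 took 0.0193%. No other pair of Igkv segments with at least 20 counts was equal in more than 1 library. The longest run that the GENCODE M21 transcripts of the 2 have in common is 20 bases, marked in capitals (chr6:68939863-68939922, plus strand, and chr6:69750987-69751046, minus strand).
Igkv13-84: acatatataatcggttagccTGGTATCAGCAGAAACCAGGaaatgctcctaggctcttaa
Igkv12-47: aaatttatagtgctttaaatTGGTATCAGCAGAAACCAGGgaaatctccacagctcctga

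The segments share 0 windows of 31 bases in that annotation, and the sources used here do not name the transcripts the authors quantified against. Which of the 2 segments the reads came from cannot be read from these values, and the cause of the equal values was not tested. Their sum was 4.54%, 6.00% and 6.89% in the females and 5.99%, 5.84% and 5.19% in the males. Without Igkv12-47, family 12 took 9.39%, 9.92% and 11.1% in the females and 11.3%, 11.1% and 11% in the males, with female replicate 1 still the lowest.

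The deviation of each female from the males was set against the GC content of the segments. Relative to the mean of the males, and over the 58 segments with a mean share of at least 0.1% and a count of at least 1 in each mouse, log2 ratios of shares had a Spearman correlation with transcript GC content of 0.46 in female replicate 1, -0.34 in female replicate 2 and -0.72 in female replicate 3. Each male against the other 2 gave between -0.0579 and 0.042. In female replicate 3 the median log2 ratio was 0.14 in the 15 segments with the lowest GC content (up to 46.7%) and -1.30 in the 15 with the highest (from 48.9%). In female replicate 1 these medians were -0.00443 and 0.48. Across 11275 tested genes of all kinds the same correlation was 0.366 in female replicate 1, -0.20 in female replicate 2 and -0.564 in female replicate 3, so the direction in each female was that of its whole library. In the males it was 0.292, -0.21 and -0.0431, a trend that their Igkv shares did not show. Relative to the mean of the other mice, log2 ratios of shares over the 58 segments also correlated with the distance to Igkj1. The Spearman correlation was -0.448, 0.0903 and 0.382 in female replicates 1 to 3 and -0.0338, 0.0772 and -0.0131 in the males. Segments and genes are not independent replicates, and the part of GC content or of distance in the Igkv shares was not tested. Among segments with a share of at least 1% in some mouse, 3 of the 5 with the widest ratio between mice belong to families 6 and 8. Igkv6-32 (49.7% GC) took 1.76%, 1.11% and 0.250% in the females and 1.55%, 1.29% and 1.40% in the males. Igkv6-17 (48.3% GC) took 1.98%, 0.867% and 0.344% in the females and 1.46%, 1.05% and 1.67% in the males. Igkv8-21 (50.8% GC) took 1.22%, 0.561% and 0.203% in the females and 0.605%, 0.567% and 0.609% in the males. In all 3 segments female replicate 1 was highest and female replicate 3 lowest.

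**Figure D4:**
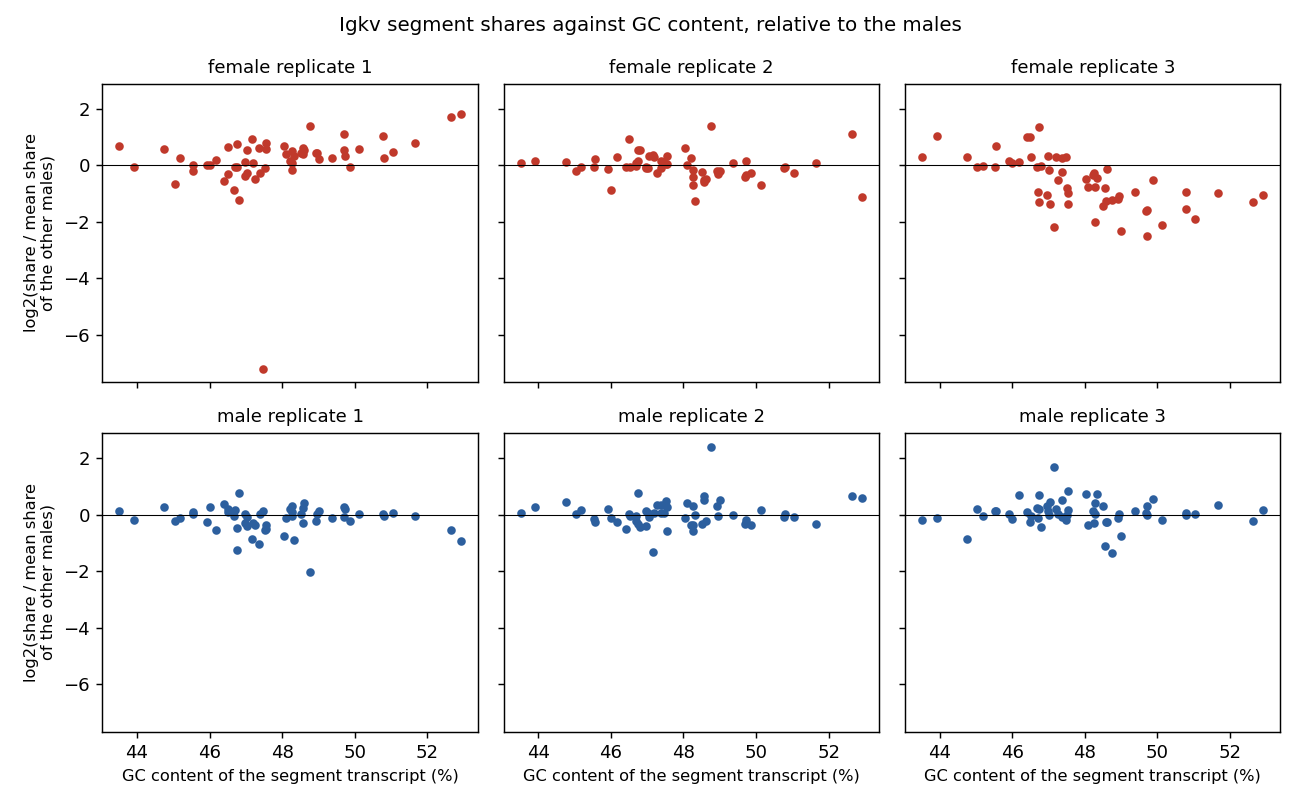
Log2 ratio of the share of a segment to its mean share in the males (the other males for a male; y axis) against GC content of the transcript (x axis, percent), 58 segments per mouse. The points fall with GC content in female replicate 3 (Spearman -0.72) and climb in female replicate 1 (0.46), with Igkv12-47 as the single low point there, and are level in the males.

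Between the sexes, no Igkv segment was called. Of the 103 segments, 62 passed the low-count filter of edgeR and held 97.7 to 99.1% of the Igkv sum, and the other 41 had at most 26.8 counts in any mouse. At an FDR of 0.05 over all 12172 genes tested, 0 of 62 were called higher in females, against a background of 0.0246% of all genes, and 0 of 62 higher in males, against 0.0329%. At an unadjusted p under 0.05 there were 0 of 62 segments, against 352 of 12172 genes. DESeq2 gave 96 segments a p and 73 of them an adjusted p, and called 0, with 1 at an unadjusted p under 0.05, and limma-voom called 0 of 62, with 0. The log2 fold change (female over male) was positive in 28 of 62, ran from -1.44 to 1.14 and had a median of -0.05, against 0.00 for all genes tested. The median was 0.38 without female replicate 3, with 59 of 68 tested segments positive, and -0.33 without female replicate 1, with 15 of 65.

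In CPM, counts scaled to library size with TMM factors, every female lay above every male for 2 of 62 segments, against 4.41% of all genes tested, and every male above every female for 0 of 62, against 4.57%. The 2 were Igkv5-45 and Igkv16-104. Their separation rests on the TMM factors, which were 0.816 in female replicate 3 and 0.993 to 1.07 in the other libraries. With library totals only, the sexes overlapped in both, and the log2 fold changes were 0.73 for Igkv5-45 and 0.14 for Igkv16-104. Igkv5-45 (69775750 to 69776344) had 2.60, 3.15 and 1.58 CPM in the females and 1.57, 1.39 and 1.18 CPM in the males. It had the smallest p of the segments (log2 fold change 0.82 ± 0.39 SE, edgeR unadjusted p = 0.0669, adjusted p = 0.999). As a share of the Igkv sum it took 1.13%, 1.38% and 1.42% in the females and 0.789%, 0.726% and 0.641% in the males. Its share is uncertain, since 224 of its windows also occur in Igkv5-43, which took 3.03%, 2.67% and 1.36% in the females and 2.85%, 2.31% and 3.24% in the males. Igkv16-104 had 12, 13.7 and 12.4 CPM in the females and 9.97, 11.9 and 9.65 CPM in the males (log2 fold change 0.27 ± 0.21, edgeR adjusted p = 0.999). With TMM factors its level in female replicate 3 was like that in the other females, while by library totals only it was lower. The Igkv sum it is divided by was low in that mouse on either scale. Igkv10-96 had 34.9, 40.2 and 25.3 CPM in the females and 38.5, 35.0 and 33.7 CPM in the males (log2 fold change -0.10 ± 0.20, edgeR adjusted p = 0.999).

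By share of the Igkv sum, 2 of the 62 were higher in every female than in every male, against 1.61% of all genes divided by the same sum, and 2 were lower, against 3.29%. The higher ones were Igkv5-45 and Igkv13-84, whose equal values with Igkv12-47 are given above. The lower ones were Igkv9-120, at 1.85%, 2.07% and 1.98% in the females and 2.14%, 2.31% and 2.24% in the males, and Igkv12-98, at 0.352%, 0.406% and 0.344% against 0.409%, 0.571% and 0.494%. Among the 41 segments not tested, Igkv3-9 and Igkv13-87 were also higher in every male, with at most 3 counts in any mouse.

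The other segments with the smallest p were rare. Igkv11-125 had 0.00, 0.583 and 0.172 CPM in the females and 0.482, 0.869 and 0.751 CPM in the males (log2 fold change -1.44 ± 0.95). Igkv3-7 had 0.894, 0.583 and 0.0687 CPM in the females and 0.181, 0.313 and 0.202 CPM in the males (1.14 ± 0.82). Igkv9-124 had 1.21, 1.78 and 1.51 CPM in the females and 0.542, 1.43 and 1.10 CPM in the males (0.56 ± 0.46). In these 3 the sexes overlapped, and the edgeR adjusted p was 0.999.

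Use along the locus was uneven. The 40 segments within 1 Mb of Igkj1 held 35.1%, 32.8% and 27.8% of the sum in the females and 33.7%, 31.9% and 34.6% in the males. The 31 segments between 1 and 2 Mb held 11.4%, 6.91% and 7.33% in the females and 8.66%, 8.62% and 7.76% in the males. The 32 segments farther than 2 Mb held 53.4%, 60.3% and 64.9% in the females and 57.7%, 59.5% and 57.7% in the males. The middle stretch, where all 26 family 4 segments lie, was the least used in every mouse. A segment on the same strand as Igkj1 joins by deletion of the DNA between them and one on the other strand by inversion. The 40 segments on the same strand held 47.2%, 45.5% and 42.1% in the females and 42.4%, 45.3% and 43.2% in the males, and the 63 on the other strand held the rest. Over the 103 segments the Spearman correlation of the mean share was 0.205 with the distance to Igkj1, -0.421 with GC content and 0.27 with transcript length. The points of these correlations share the same 6 libraries.

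**Figure D5:**
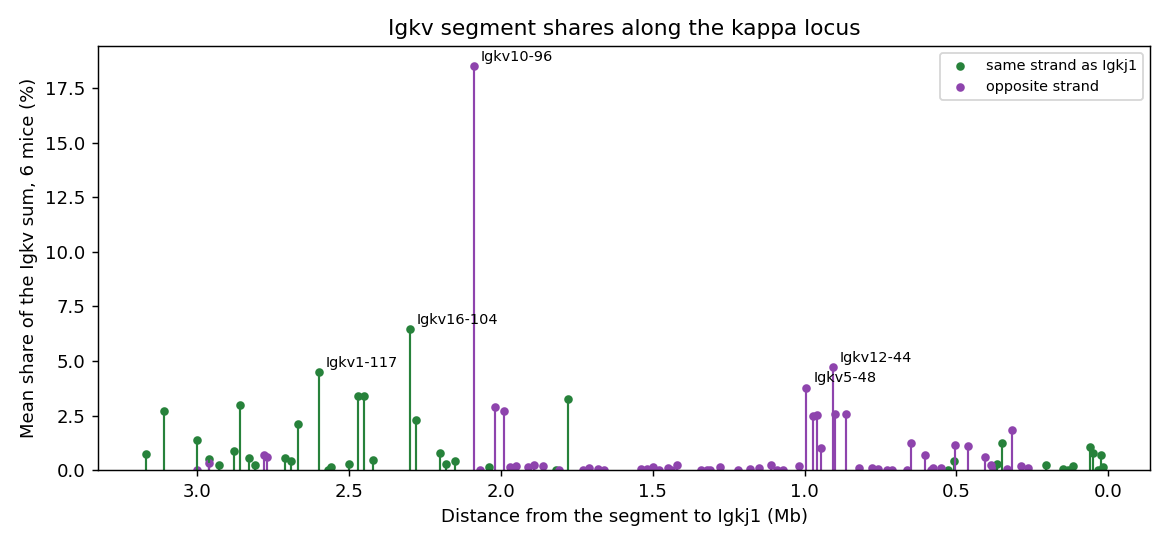
Mean share of the Igkv sum over 6 mice (y axis, percent) of each of 103 segments by its distance from Igkj1 (x axis, Mb), coloured by strand. Igkv10-96 stands above all others at 18.5%, used segments lie near and far from Igkj1, and the stretch between 1 and 2 Mb holds few.

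Among the listed other genes of light chain biology, edgeR called 0 in either direction. Of 16 kappa and lambda constant, joining and lambda variable genes, 10 were in the table and 4 were tested, with 2 positive and a median log2 fold change of -0.13 (0.27 without female replicate 3). Igkc, the kappa constant gene, had 144, 79.7 and 20.8 CPM in the females and 91.9, 74.0 and 75.2 CPM in the males (log2 fold change 0.02 ± 0.56, edgeR adjusted p = 1). The mean of Igkc was 81.6 CPM in females and 80.4 in males, below that of the transcription factor gene Pax5 (585 and 504 CPM). How much of the light chain RNA these counts capture was not tested. Per Igkc count there were 1.60, 2.85 and 5.31 Igkv counts in the females and 2.16, 2.61 and 2.48 in the males. Igkc was thus even lower than the Igkv sum in female replicate 3, and the ratio did not differ between the sexes beyond its spread (3.25 ± 1.89 against 2.42 ± 0.232, SD, n = 3, exact permutation p = 0.7). The 5 Igkj segments were listed at 0 in every library. Iglc2, a lambda constant gene, had 41.3, 23.5 and 2.51 CPM in the females and 32.1, 24.9 and 28.6 CPM in the males, and was lowest in the same mouse. Iglv3 had 10.9, 9.21 and 7.80 CPM in the females and 10.7, 11.4 and 11.5 CPM in the males (-0.27 ± 0.23, edgeR adjusted p = 0.999).

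Genes of V(D)J joining (9 of 12 listed genes tested, 0 called, 3 positive, median log2 fold change -0.11) included Xrcc6, a DNA end-joining gene, with 45.5 ± 4.16 CPM in females and 55.2 ± 3.81 in males. Lig4, the ligase of that pathway, had 38.0 ± 8.40 and 32.9 ± 3.64 CPM. The recombinase gene Rag1 was listed at 0 in every library, while its partner gene Rag2 had 0.871 ± 0.0732 CPM in females and 0.978 ± 0.304 in males. Of the surrogate light chain genes only Vpreb3 was tested, at 0.914 ± 0.299 CPM in females and 1.28 ± 0.118 in males. Of the transcription factors that act at the kappa locus, 17 were tested, 0 called and 12 positive, with a median of 0.14 (0.04 without female replicate 3). Among them Irf4 had 134, 227 and 151 CPM in the females and 105, 132 and 105 CPM in the males (0.58 ± 0.22, edgeR adjusted p = 0.999). Tcf4 had 211 ± 45.3 CPM in females and 153 ± 18.4 in males (0.46 ± 0.19, edgeR adjusted p = 0.999). Of the somatic hypermutation genes, 5 were tested, 0 called and 2 positive, with a median of -0.03 (0.04 without female replicate 3). Among these, Ung, a uracil glycosylase gene, had 17.8 ± 5.00 and 16.5 ± 0.848 CPM and the mismatch repair gene Msh6 had 214 ± 41.5 and 229 ± 13.7 CPM. Genes of antibody-secreting cells (6 tested, 0 called, 5 positive, median 0.67, and 0.85 without female replicate 3) included the joining chain gene Igj, at 35.3, 48.7 and 59.1 CPM in the females and 16.3, 16.2 and 17.5 CPM in the males (1.51 ± 0.22, edgeR adjusted p = 0.169). Its highest CPM with TMM factors was in female replicate 3, the mouse with the lowest Igkv sum. Fam46c, a plasma cell gene that acts on immunoglobulin mRNA, had 71.4, 152 and 83.1 CPM in the females and 45.9, 37.9 and 38.6 CPM in the males (1.32 ± 0.29, edgeR adjusted p = 0.876). The other 4 tested were Prdm1, at a log2 fold change of 1.63 ± 0.39, and 3 near 0: Xbp1 (0.00 ± 0.16), Sdc1 (0.00 ± 0.37) and Mzb1 (0.02 ± 0.42). Mzb1, a chaperone gene of antibody assembly, was lowest in female replicate 3, at 12.1 CPM against 23.9 to 42.7 in the other mice.

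The labelled cell type was checked against its markers. The 6 B cell markers summed to 1970 to 2780 CPM in the females and 1960 to 2210 CPM in the males. The 7 T cell markers summed to 5.31 to 7.03 CPM in the females and 3.52 to 5.05 in the males, without overlap. Natural killer cell markers summed to 1.98 to 7.43 and 1.53 to 3.61 CPM, with Ncr1 and Nkg7 at 0 throughout, and dendritic cell markers to 3.19 to 6.02 and 4.39 to 7.15 CPM. Monocyte and macrophage markers also did not overlap, at 4.09 to 6.51 CPM in the females and 1.08 to 1.38 in the males. Erythroid markers likewise ran from 0.343 to 1.90 CPM in the females and from 0 to 0.0577 in the males, with Hba-a2 at 0. Granulocyte markers stayed at or under 0.35 CPM. Antibody-secreting cell markers (7 of 8 with at least 3 counts in some library, Tnfrsf17 at 0) summed to 274 to 416 CPM in the females and 197 to 220 in the males, without overlap. Of the monocyte and macrophage markers only 4 of 6, and of the erythroid markers 2 of 4, reached 3 counts in some library. Among single genes tested, every female lay above every male in 4.41%. With library totals only, the T cell and antibody-secreting sums of the sexes overlapped, while the monocyte and erythroid sums did not. The part of these marker differences in the Igkv values was not tested.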

How the data were processed

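The authors deposited 1 table of estimated counts per gene symbol, 1 column for each mouse. The tools named, per the submitters' processing notes, are kallisto and DESeq2, with the build GRCm38.p6. Their versions, settings and transcript set are not stated there. Shares were computed from the estimated counts as deposited, and tests from the same counts rounded to whole numbers. Reads from NZB and NZW alleles were counted against a reference of another strain, and the effect on single segments was not tested.

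Segments were matched by symbol to GENCODE M21 (GRCm38), using the longest transcript of each gene. Females and males were compared with edgeR 4.0.16 (R 4.3.3; filterByExpr, TMM, quasi-likelihood F test, sex as the only term), with Benjamini-Hochberg adjustment over 12172 genes. A standard error is the size of the log2 fold change divided by the square root of F. DESeq2 1.42.0 and limma-voom (limma 3.58.1) were alternatives, and the fits were tested on simulated data. The simulated counts held no outlying library, no GC trend and no reads shared between segments, so they cannot test for these. Values per mouse were compared with exact permutation tests, two-sided. Each mouse was sampled as its own library, so the spread mixes differences between animals and between libraries, which cannot be told apart.

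Segments were named by rule: the 12 largest, the 3 largest of each mouse, the 5 most variable with a share of at least 1% in some mouse, and the 5 with the smallest p. Igkv10-95, Igkv5-43, Prdm1, Xbp1, Sdc1, Mzb1, Pax5, Rag2 and the segments without overlap in share were added with their values known. So were the comparisons with GC content and distance, the division of the locus by distance and strand, and the sum over families 2, 3, 4, 6 and 8. The members and lists were chosen with earlier results of these data known.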

Additional observations from a re-analysis of the deposited data

How the results depend on the processing

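Depth limits single segments: 41 of 103 were too rare to test. No segment was called, in either direction, in the edgeR, DESeq2 or limma-voom fit or under any other scaling, filter, block or left-out library (0 in all). The female minus male differences in single values per mouse were smaller than the spread of the females. With 1 library left out they changed sign in 1 fit for the Igkv share, 2 for the effective number and 3 for the largest share. Leaving out 1 library moved the Igkv share of the library (main -0.00149 percentage points) between -0.00444 and 0.00337, the effective number (main -0.203) between -2.51 and 2.64, and the share of the largest segment (main 0.0419 percentage points) between -2.12 and 1.77. In each the extreme on the other side of 0 was the fit without female replicate 3. There the remaining females lay above all males in Igkv share and effective number and below them in largest share. The exact permutation p was 0.1 for each, the smallest possible there, and this mouse is singled out with its values known. With V genes only, without pseudogenes, the effective number differed by 0.0419 and the largest share by -0.0346. The count of families with a higher female mean ran from 6 to 12 with 1 library left out.

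Family differences that changed sign when 1 library was left out ranged, in percentage points, from -1.86 to 0.653 (family 1), -0.555 to 0.231 (2), -1.14 to 0.749 (3), -0.957 to 0.48 (4), -2.85 to 0.826 (6), -0.515 to 0.722 (8), -0.538 to 0.239 (9), -2.27 to 1.74 (10), -0.112 to 0.543 (14), -0.883 to 1.24 (17) and -0.641 to 0.0989 (19). Families 5, 12, 13, 15 and 16 kept their sign in these fits. Of these, families 12 and 13 hold Igkv12-47 and Igkv13-84, between which reads could not be assigned. The mean overlap of 15 pairs was 85.6%, and from 84.3 to 89.1% with 1 library left out. Counting Igkv13-84 and Igkv12-47 as 1 segment, chosen after seeing the data, gave 86.1%.

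Deviations of same-numbered females and males from their group means correlated by 0.222, 0.0423 and 0.0695, and 4 of 6 libraries correlated best with their own number. The main fit did not take the numbers as pairs, and whether they mark a shared batch was not tested. With the replicate number as a block, 0 segments were called and the median log2 fold change of the Igkv segments was -0.18 in place of -0.05.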
